A study of Mus musculus with 10 samples.

Results

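The U4/U6.U5 tri-snRNP is the preassembled particle that brings the catalytic parts of the spliceosome to an intron. The 9 genes described here encode large proteins of this particle, Prpf8, Snrnp200, Eftud2, Prpf6, Prpf3, Prpf4, Prpf31, Sart1 and Snrnp40. They are given by name, and all 9 were found among the 25239 genes of the count table and passed the filter on low counts. RNA was sequenced from mouse testis (strain C57BL/6) with the genotype label Lsm7-flfl-stra8 (cKO) or wild type (WT), at postnatal day 4 (P4) or 7 (P7). The groups were P4 cKO (3 libraries), P4 WT (2), P7 cKO (3) and P7 WT (2). The cKO is labelled as a conditional loss of Lsm7, which encodes a subunit of the ring bound to U6 RNA. The label names Stra8, a gene of differentiating germ cells, but the sources used here do not give the driver line. The labels give germ cell as the cell type, whereas the protocol takes RNA from testis with no sorting step. Fewer cells of a type and less RNA per cell cannot be told apart in such samples. Counts of the pair of P7 WT libraries differed by less than the spread of any other pair, close to counting noise, and their sum was used as a single sample (n = 1), which leaves 9 samples. Separate animals are not stated in the labels, so a p-value covers the spread among the libraries, possibly a technical one.

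Before it enters the spliceosome, the tri-snRNP holds U4 RNA paired with U6 RNA, which keeps U6 inactive, together with the U5 particle. On the U5 side, Prpf8 is the scaffold of the catalytic centre, Snrnp200 (Brr2) is the helicase that unwinds U4 from U6, Eftud2 (Snu114) is a GTPase, Snrnp40 is a WD40-repeat protein and Prpf6 bridges the U5 and U4/U6 particles. On the U4/U6 side, Prpf3 and Prpf4 form a pair of bound proteins and Prpf31 holds U4 RNA, while Sart1 (Snu66) is a protein of the joined tri-snRNP. In humans, variants of several of these genes are known in inherited retinal degeneration, and those of EFTUD2 in a craniofacial syndrome. The LSm ring, of which Lsm7 is a subunit, binds the end of U6 RNA and is itself part of the tri-snRNP.

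Libraries held 28.8 to 41.8 M reads. Each of the 9 genes had at least 1444 reads in every sample, and all 9 could be tested. P7 cKO library 1 stood apart from the other P7 cKO libraries (117.29 and 122.88 for the chi-square of gene counts divided by its degrees of freedom, against 23.49 within the remaining pair). Levels are given in CPM, counts scaled to 1 M reads with TMM composition factors. Lsm7 was at 44.9, 50.5 and 43.6 CPM in P4 cKO, against 36.2 and 25.7 CPM in P4 WT, and at 45.2, 26.0 and 20.3 CPM in P7 cKO, against 33.3 CPM in P7 WT. No lower level was detected (log2 fold change ± SE 0.58 ± 0.30 at P4, edgeR adjusted p = 0.215, and -0.13 ± 0.37 at P7, adjusted p = 0.835). Leaving out P7 cKO library 1 put the P4 value past the threshold (adjusted p = 0.0361), and leaving out library 3 made the P7 value 0.10. Over the 21 alternatives run, the value ran from 0.24 to 0.85 at P4. At P7 it ran from -1.19 to 0.10, and none passed. Reads outside a deleted part would check nothing, so these levels do not settle the genotype labels. The count columns of the cKO libraries are headed L7, which was read as Lsm7 because the labels give only 1 genotype other than WT. Directions below are therefore those of libraries labelled cKO. All 9 germ cell markers were read in each sample, and Sertoli cell markers summed higher than germ cell markers in every sample (1310 to 1490 CPM of germ cell markers in P7 cKO, against 1750 CPM in P7 WT, with Sertoli cell sums of 4260 to 4370 CPM against 4400 CPM).

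Of the 9 genes, 7 have a promoter window in the RefSeq table for GRCm38.p6 (none was found there for Eftud2 and Snrnp40), and 4 are printed because the results turn on them. Sart1 and Prpf6 passed the test between genotypes at P7, and Prpf3 changed most between stages in cKO. Prpf4 passed no test, except between stages in cKO when library totals were the scaling. Each stretch runs 5′ to 3′ on the strand of the gene from 180 bases before the first transcript base to 30 bases into it. Capitals mark matches to a searched motif on either strand.
Sart1: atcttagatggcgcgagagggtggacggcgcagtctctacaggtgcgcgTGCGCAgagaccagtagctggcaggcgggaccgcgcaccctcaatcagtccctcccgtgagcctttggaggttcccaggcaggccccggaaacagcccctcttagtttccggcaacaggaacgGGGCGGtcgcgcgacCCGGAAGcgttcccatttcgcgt
Prpf6: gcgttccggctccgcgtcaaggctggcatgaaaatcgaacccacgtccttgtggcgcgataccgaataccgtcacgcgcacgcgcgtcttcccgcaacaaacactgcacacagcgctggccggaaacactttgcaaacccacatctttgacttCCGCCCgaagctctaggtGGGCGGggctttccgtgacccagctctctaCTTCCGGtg
Prpf3: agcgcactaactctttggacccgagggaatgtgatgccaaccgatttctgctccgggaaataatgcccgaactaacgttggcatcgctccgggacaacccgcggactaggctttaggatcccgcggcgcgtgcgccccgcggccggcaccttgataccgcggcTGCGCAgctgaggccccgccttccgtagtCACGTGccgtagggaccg
Prpf4: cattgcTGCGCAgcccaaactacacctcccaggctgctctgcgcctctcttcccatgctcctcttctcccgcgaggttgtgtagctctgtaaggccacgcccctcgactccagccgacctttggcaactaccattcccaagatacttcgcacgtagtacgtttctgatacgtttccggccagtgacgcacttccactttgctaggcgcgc
They lie at chr19:5388674-5388883 (minus strand, Sart1), chr2:181601139-181601348 (plus, Prpf6), chr3:95855856-95856065 (minus, the first of 2 windows of Prpf3) and chr4:62408603-62408812 (plus, Prpf4). The 9 motifs searched in the full windows of 300 bases were the TATA box TATAAA, the CCAAT box (the letters of its name), an ETS factor core CCGGAAG, the GC box GGGCGG, part of the NRF1 site TGCGCA, the YY1 core AAGATGGC, the cyclic AMP element TGACGTCA, the E-box CACGTG and part of the retinoic acid receptor site AGGTCA. No searched motif overlapped another in the stretches shown.

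The Sart1 stretch held CCGGAAG at bases 8 to 14, GGGCGG at -8 to -3, and TGCGCA at -131 to -126. The Prpf6 stretch held CCGGAAG on the opposite strand at bases 22 to 28, and GGGCGG at -27 to -22 (opposite strand) and at -9 to -4. The Prpf3 stretch held TGCGCA at -17 to -12 and CACGTG at bases 13 to 18, and the Prpf4 stretch held TGCGCA alone, at -174 to -169. Among the windows not printed, the second of Prpf3 held CCGGAAG at -57 to -51. That of Snrnp200, which did not pass between genotypes, held both CCGGAAG and GGGCGG. Of all 32851 windows in the table, CCGGAAG was in 8.86%, GGGCGG in 35.7%, TGCGCA in 7.76% and CACGTG in 7.15%. No TATAAA was found in the windows of the 7 genes, against 13.6% of all windows. The windows of the 7 genes held 16 to 40 CpG dinucleotides, against a median of 7 over all windows. Matches describe the letters, and binding was not measured.

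In GRCm38, whose coordinates the count table carries, the genes lie on 6 chromosomes. Prpf8 is at 75486777 to 75509447 on chromosome 11 (plus strand) and Eftud2 at 102838472 to 102880975 on the same chromosome (minus). Snrnp200 is at 127208386 to 127240453 and Prpf6 at 181601319 to 181655661 on chromosome 2 (both plus), and Prpf4 at 62408783 to 62426990 and Snrnp40 at 130360132 to 130390030 on chromosome 4 (both plus). Prpf3 is at 95830124 to 95855885 on chromosome 3 (minus) and Prpf31 at 3629985 to 3642484 on chromosome 7 (plus). Counts were summed over all exons of a gene, which span 1588 bases in Snrnp40 and 7481 in Prpf8.

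Per kilobase of exon, Snrnp40, Eftud2, Prpf8 and Sart1 were the highest. Snrnp200, Prpf3 and Prpf6 lay below them with Prpf31, and Prpf4 was the lowest gene in all 9 samples. On this scale of CPM per kilobase, Snrnp40 averaged 62.2 ± 9.31 in P7 cKO, against 44.6 in the P7 WT sample, and 52.7 ± 2.07 in P4 cKO, against 34.8 ± 6.71 in P4 WT (SD, n = 3, 1, 3 and 2). Prpf4 lay at 11.8 to 13.8 in P7 cKO, against 12.0 in P7 WT, and at 10.3 to 11.8 in P4 cKO, against 12.6 and 11.1 in P4 WT. Neighbours in the order were often not separated by their spread. In P7 cKO, Snrnp40 (52.9 to 71.5), Eftud2 (46.6 to 58.9) and Sart1 (39.3 to 62.4) overlapped, and so did Prpf3 (28.4 to 35.9) and Prpf6 (28.1 to 34.6). Prpf31 lay below Prpf3 in P7 cKO (19.4 to 22.5) and just above it in P4 cKO (18.4 to 19.2, against 14.5 to 18.3 for Prpf3). Sart1 left its place in the P7 WT sample, where its 21.7 lay below the 22.7 of Prpf3.

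**Figure D1:**
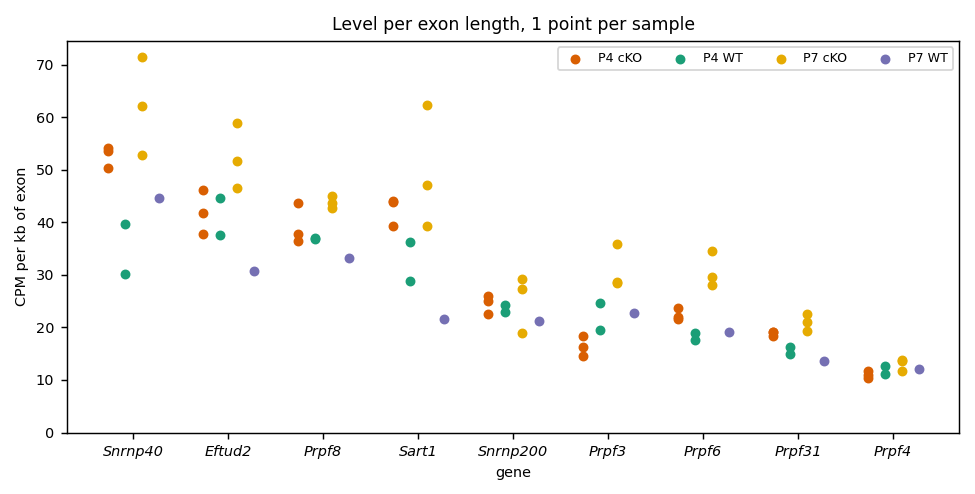
Level of each gene in CPM per kilobase of exon (vertical axis), 1 point per sample, with the genes in order of their level and the colours giving the group. Snrnp40 in P7 cKO reaches 71.5 and Prpf4 stays between 10.3 and 13.8 in all samples.

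Summed over the 9 genes, the level was 323, 348 and 315 CPM per kilobase in P7 cKO, against 219 in P7 WT. At P4 the sum was 278, 269 and 261 in cKO, against 242 and 232 in WT. The cKO sums were thus above the WT sums at both stages, by 0.59 at P7 and 0.19 at P4 on the log2 scale. Values in TPM, which divide by the sum of length-scaled counts of each sample, gave 781, 860 and 820 in P7 cKO, against 591 in P7 WT, and 613, 558 and 533 in P4 cKO, against 641 and 600 in P4 WT. On that scale the difference was 0.47 at P7 and turned to -0.13 at P4. A direction of the sum at P4 therefore depended on the scale.

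The comparison of cKO with WT at P7 asks how tri-snRNP genes stood in testes labelled as lacking Lsm7 when germ cells begin to differentiate. Sart1, Eftud2 and Prpf6 rose, and all 9 fold changes were positive, though that of Snrnp40 was -0.04 once trends with gene length and GC content were removed. The 3 of 9 that rose stand against 7.26% of all genes tested that were called higher. The median log2 fold change of the 9 genes was 0.48, against 0.08 over all genes. The WT group at P7 is 1 sample, which the test assumes to vary like the other groups.

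Sart1 had 317, 240 and 200 CPM in P7 cKO, against 110 CPM in P7 WT. All 3 cKO samples lay above WT, and library 1, which stood apart over all genes, was the highest. The log2 fold change was 1.19 ± 0.28 (SE, edgeR adjusted p = 0.0190), or 2.29-fold. Without P7 cKO library 1 it was 0.99 (adjusted p = 0.00733), and without P7 cKO library 2 it was 1.23 and no longer passed (adjusted p = 0.05). In the separate P7 WT libraries Sart1 had 3097 and 3265 reads. Sart1 (chromosome 19, 5377523 to 5388703, minus strand, GRCm38) shares exon bases with D330050I16Rik on the plus strand, and without a stated strand setting their reads cannot be told apart. D330050I16Rik was counted at 6.93, 2.71 and 3.21 CPM in P7 cKO, against 2.53 CPM in P7 WT. No other of the 9 genes overlaps a gene of the table.

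Reads of Sart1 were also set against those of Prpf8 within each sample, a ratio that does not depend on scaling between samples. It was 0.991, 0.734 and 0.594 in P7 cKO, against 0.444 in P7 WT. At P4 the ratio was 0.686, 0.793 and 0.733 in cKO, against 0.668 and 0.532 in WT. Every cKO ratio lay above the WT ratios of its stage. Sart1 was set against each of the other 8 genes in the same way. Every cKO ratio lay above WT in 8 of 8 pairs at P7 and in 4 of 8 pairs at P4. The 8 pairs are not separate results, because all share the reads of Sart1 and, at P7, the same WT sample. Sart1 was also the gene with the highest log2 fold change at P7 (1.19, against 0.12 to 0.77 for the others). Higher ratios at P7 therefore follow largely from the choice of Sart1. How often other pairs of genes show this pattern was not tested. At P4 the ratio to Snrnp40 was 2.80, 2.64 and 2.33 in cKO, against 3.86 and 2.34 in WT, and the ratios to Prpf6, Prpf31 and Snrnp200 also overlapped.

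Among the U5 proteins, Eftud2 had 155, 196 and 172 CPM in P7 cKO, against 103 CPM in P7 WT. Its 3 cKO values lay above WT, with a log2 fold change of 0.77 ± 0.23 (edgeR adjusted p = 0.0423), or 1.70-fold. Prpf6, the bridging protein, had 90.6, 106 and 85.8 CPM in P7 cKO, against 58.4 CPM in P7 WT. Its groups did not overlap either, and its log2 fold change was 0.69 ± 0.21 (adjusted p = 0.0435), or 1.61-fold. Both calls were close to the threshold. Without the filter on low counts Prpf6 did not pass (0.67, adjusted p = 0.0589). Eftud2 no longer passed without P4 cKO library 2 (adjusted p = 0.0712) or without P7 cKO library 2 (0.107) or 3 (0.0664). Prpf6 no longer passed without any one of P4 WT libraries 1 (0.0506) and 2 (0.0534), P4 cKO libraries 1 (0.0572), 2 (0.0730) and 3 (0.0545) and P7 cKO libraries 2 (0.111) and 3 (0.0510).

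The other U5 proteins did not pass at P7. Prpf8 had 320, 327 and 337 CPM in P7 cKO, against 248 CPM in WT, with close cKO values above the WT one (log2 fold change 0.40 ± 0.21, edgeR adjusted p = 0.193). Snrnp40 had 84.0, 114 and 98.7 CPM in cKO, against 70.8 CPM in WT (0.48 ± 0.24, adjusted p = 0.178), and its groups did not overlap. Snrnp200, the helicase, had 128, 197 and 185 CPM in cKO, against 143 CPM in WT, so that cKO library 1 lay below the WT sample and the other two above it (0.24 ± 0.25, adjusted p = 0.527). Of the U4/U6 proteins, Prpf31 had 70.5, 66.0 and 60.9 CPM in cKO, against 42.9 CPM in WT, all above it (0.62 ± 0.20, adjusted p = 0.0542). Prpf31 passed when P7 cKO library 1 was left out (adjusted p = 0.0478) or when P7 WT library 1 stood alone for WT (adjusted p = 0.0440). It also passed with DESeq2 (adjusted p = 0.0245), limma-voom (0.0426), library totals (0.0344) and a minimum count of 50 (0.0425), each of which called 4 of the 9 genes. Prpf3 had 123, 97.3 and 98.3 CPM in cKO, against 77.6 CPM in WT (0.45 ± 0.24, adjusted p = 0.205), again without overlap. Prpf4, its partner, had 61.7, 72.4 and 71.7 CPM in cKO, on both sides of the 63.0 CPM of WT (0.12 ± 0.20, adjusted p = 0.703). In all, 7 of the 9 genes had every cKO sample above the WT sample, as did 36.2% of all genes.

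**Figure D2:**
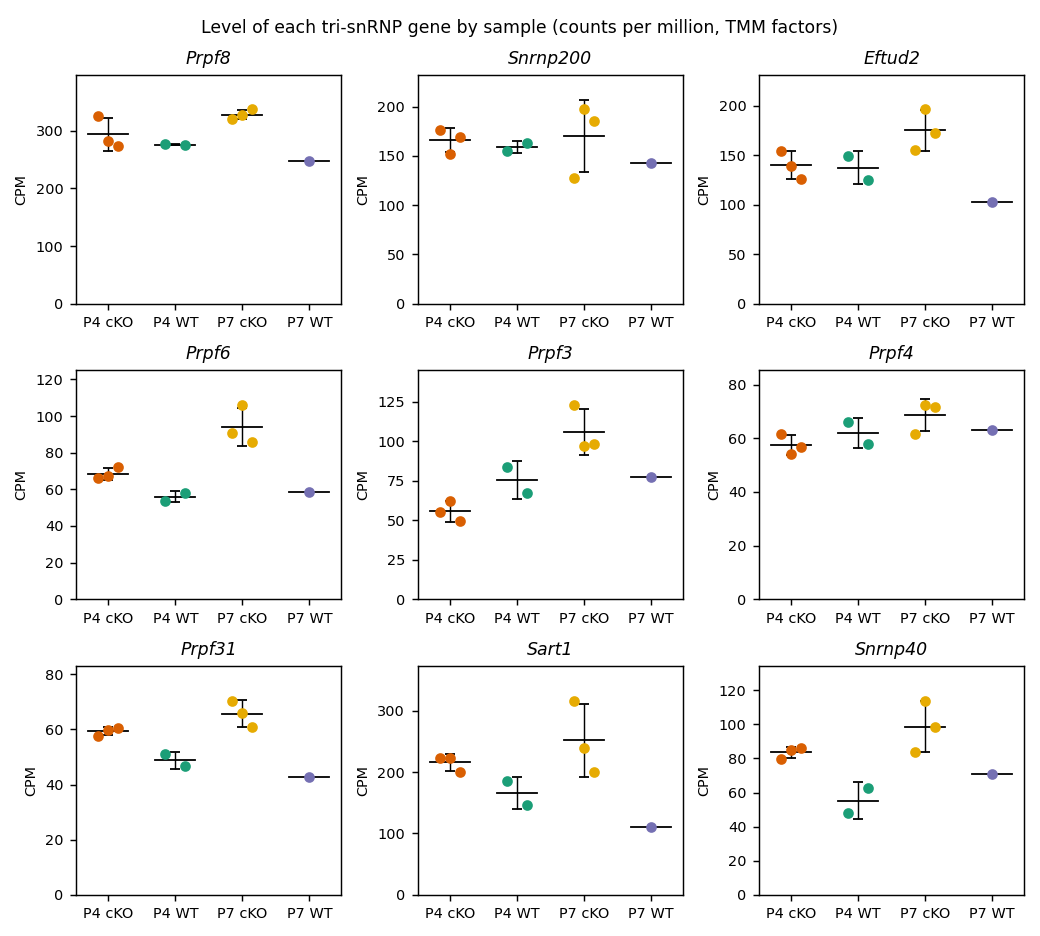
Level of each gene in CPM (vertical axes, starting at 0) in P4 cKO, P4 WT, P7 cKO and P7 WT samples. Points are samples, long lines means and bars SD. Sart1 lies at 200 to 317 in P7 cKO and at 110 in the P7 WT sample, while the P7 cKO samples of Prpf4 lie on both sides of its P7 WT sample at 63.0.

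Limits of the P7 comparison were shared by the 3 genes and by calls over all genes. A fit of the P7 libraries alone called no gene of the table. Offsets for length and GC content left very few calls (numbers in the last section). When only the P7 libraries were fitted, none of the 9 passed, with log2 fold changes of 1.17 for Sart1 (adjusted p = 0.103), 0.74 for Eftud2 (0.122) and 0.65 for Prpf6 (0.146). None passed when trends with gene length and GC content were removed, with 1.10 for Sart1 (adjusted p = 0.169), 0.53 for Eftud2 (0.247) and 0.51 for Prpf6 (0.248). With these offsets Prpf3 stood at 0.71 and Prpf4 at 0.67, above Eftud2 and Prpf6, so the order of the genes depended on the offsets. Markers of other cell types were set beside these results, and their part was not tested. Spermatid markers, of which all 10 had reads in each P7 cKO sample and 4 of 10 in P7 WT (Prm1 at 0), summed to 28.7, 8.57 and 7.34 CPM in P7 cKO, against 0.659 CPM in P7 WT. The erythroid marker with reads (1 of 5), Alas2, was at 2.19 to 2.92 CPM in P7 cKO, against 14.9 CPM in P7 WT (log2 fold change -2.54, edgeR adjusted p = 0.00642). Leydig cell markers summed to 284 to 438 CPM in P7 cKO against 448 CPM in WT. On both sides of the WT sum lay the cKO sums of macrophage markers (31.7 to 40.8 CPM, against 35.6 CPM), stromal markers (1990 to 3020 CPM, against 2350 CPM) and endothelial markers (93.1 to 140 CPM, against 137 CPM). Single markers did not all follow these sums. At P7 the fold change was positive for 3 of 7 Leydig cell and 4 of 6 macrophage markers. It was positive for 6 of 7 stromal, 1 of 4 endothelial and 4 of 9 germ cell markers.

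At P4, none of the 9 genes passed the test between cKO and WT (edgeR), against 8.96% of all genes called in either direction. DESeq2 called 1, Snrnp40, and limma-voom 0. At an unadjusted p under 0.05, 2 of 9 would count, Snrnp40 and Prpf3, in opposite directions, as would 5398 of 18419 genes in all. The median of the 9 log2 fold changes was 0.09, against 0 over all genes. Prpf6, Prpf31, Sart1 and Snrnp40 had every cKO sample above every WT sample, a pattern found in 24.1% of all genes. Prpf3 had every cKO sample below, as did 25.6% of all genes.

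Snrnp40 had 79.9, 85.0 and 86.1 CPM in P4 cKO, against 47.8 and 62.9 CPM in P4 WT, with a log2 fold change of 0.60 ± 0.19 (edgeR adjusted p = 0.0641). It passed once P7 cKO library 1 was left out (0.60, adjusted p = 0.0186). Prpf3 had 55.2, 62.5 and 49.4 CPM in P4 cKO, against 84.0 and 67.0 CPM in P4 WT (-0.44 ± 0.18, adjusted p = 0.139). Sart1 had 224, 224 and 200 CPM in cKO, against 185 and 147 CPM in WT (0.38 ± 0.21, adjusted p = 0.245). The remaining members with separate groups were closer together. Prpf6 had 66.4, 67.0 and 72.3 CPM in cKO, against 53.8 and 58.1 CPM in WT (0.29 ± 0.16, adjusted p = 0.241). Prpf31 had 57.7, 59.9 and 60.4 CPM in cKO, against 51.1 and 46.7 CPM in WT (0.28 ± 0.15, adjusted p = 0.248).

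The 4 other genes overlapped between the genotypes at P4. Prpf8 had 326, 283 and 273 CPM in cKO, around the 277 and 276 CPM of WT (0.09 ± 0.16), and Snrnp200 had 176, 152 and 169 CPM in cKO, against 155 and 163 CPM in WT (0.06 ± 0.20). Eftud2, called at P7, had 154, 139 and 126 CPM in P4 cKO, against 149 and 125 CPM in P4 WT (0.03 ± 0.17). Prpf4 had 61.6, 54.1 and 56.8 CPM in cKO, against 65.9 and 57.9 CPM in WT (-0.11 ± 0.16). The signs of Prpf8, Snrnp200 and Eftud2 turned with library totals as the scaling (-0.07, -0.10 and -0.13), under which the median of all genes was -0.16. Summed levels of other cell markers differed at P4, and their part was not tested. Sertoli cell markers (8 of 8 read) summed to 4020 to 4630 CPM in cKO against 2590 and 3190 CPM in WT, Leydig cell markers to 742 to 928 CPM against 500 and 563 CPM, and germ cell markers to 272 to 286 CPM against 290 and 384 CPM. Macrophage markers (66.4 to 116 CPM in cKO, against 54.7 and 57.1 CPM in WT), stromal markers (4350 to 6020 CPM, against 3330 and 4100 CPM) and endothelial markers (272 to 295 CPM, against 227 and 237 CPM) also summed higher in each cKO sample. The sum of spermatid markers was lower in each, at 5.09 to 8.87 CPM against 16.2 and 11.6 CPM, and Alas2 was at 4.22 to 10.8 CPM against 5.36 and 4.75 CPM. Single markers did not all follow their sums. The P4 fold change was positive for 5 of 8 Sertoli cell, 7 of 7 Leydig cell and 3 of 9 germ cell markers. It was positive for 4 of 6 macrophage, 6 of 7 stromal and 2 of 4 endothelial markers.

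**Figure D3:**
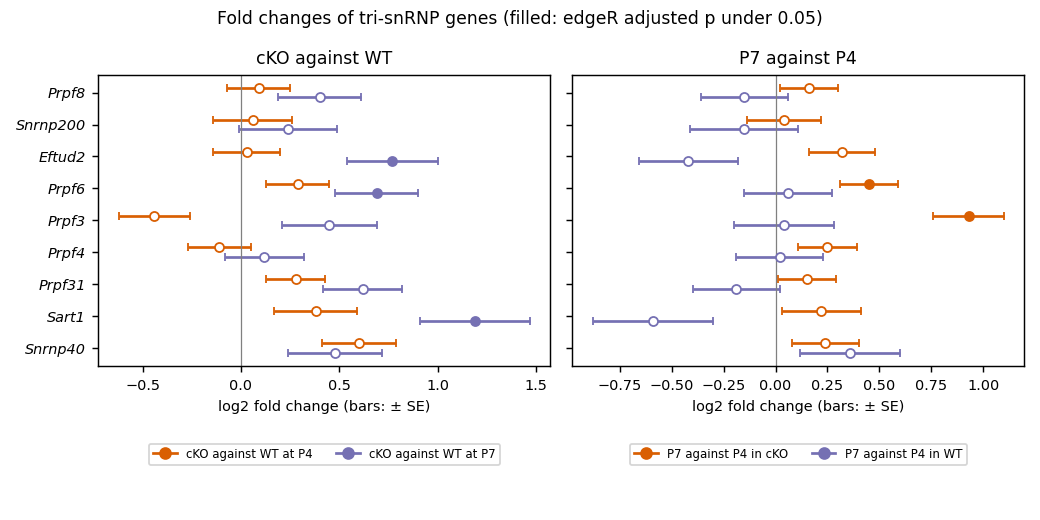
Log2 fold change of each gene (horizontal axes, bars ± SE) for cKO against WT at P4 and P7 (left) and for P7 against P4 in cKO and WT (right), with filled points for an edgeR adjusted p under 0.05. Sart1 at P7 is the highest value on the left (1.19), and Prpf3 between stages in cKO the highest on the right (0.93).

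Between the stages, Prpf3 and Prpf6 rose in cKO, where 2 of the 9 genes passed, against 14.5% of all genes called higher. All 9 fold changes were positive (that of Snrnp200 was -0.03 without P4 cKO library 2 or P7 cKO library 3 and -0.08 without P7 cKO library 2), with a median of 0.24 against 0 over all genes. Prpf3, which binds the paired U4 and U6 RNAs, had 123, 97.3 and 98.3 CPM in P7 cKO, against 55.2, 62.5 and 49.4 CPM in P4 cKO. The stages did not overlap, and the log2 fold change was 0.93 ± 0.17 (edgeR adjusted p = 0.00185), or 1.90-fold. Prpf3 passed under all 21 alternatives run, with values of 0.81 to 1.11. Prpf6 had 90.6, 106 and 85.8 CPM in P7 cKO, against 66.4, 67.0 and 72.3 CPM in P4 cKO, a rise of 0.45 ± 0.14 on the log2 scale (adjusted p = 0.0317), or 1.37-fold. It no longer passed without P4 cKO library 1 (adjusted p = 0.0832), 2 (0.106) or 3 (0.0599), or without P7 cKO library 2 (0.124).

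The other 7 genes differed less between P7 and P4 in cKO. Eftud2 (0.32, edgeR adjusted p = 0.142), Prpf4 (0.25, 0.203) and Prpf31 (0.15, 0.440) had every P7 sample above every P4 sample, which with Prpf3 and Prpf6 made 5 of 9, against 22.9% of all genes. Snrnp40 (0.24, adjusted p = 0.293), Sart1 (0.22, 0.393), Prpf8 (0.16, 0.434) and Snrnp200 (0.04, 0.895) overlapped. Over the same days 8 of 9 germ cell markers rose, summing to 1310 to 1490 CPM in P7 cKO against 272 to 286 CPM in P4 cKO, and 3 of 4 endothelial markers fell, summing to 93.1 to 140 CPM in P7 cKO against 272 to 295 CPM in P4 cKO. Of the macrophage markers 5 of 6 fell, of the Leydig cell markers 4 of 7 and of the stromal markers 4 of 7. The part of this change in cell makeup was not tested. Over all genes, about as many were called lower as higher between stages in cKO (last section).

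In WT, none of the 9 genes passed between P7 and P4 with edgeR (0 also with DESeq2 and with limma-voom), against 21.8% of all genes called in either direction. At an unadjusted p under 0.05 the count was 0 of 9, and 6845 of 18419 over all genes. The median was -0.15, against -0.03 over all genes, with Sart1 at -0.59 ± 0.29 (adjusted p = 0.157), Eftud2 at -0.42 ± 0.24 (adjusted p = 0.224) and Snrnp40 at 0.36 ± 0.24 (adjusted p = 0.304) the farthest from 0. The single P7 WT sample lay above both P4 WT samples for Prpf6 and Snrnp40 (42.6% of all genes) and below both for 5 genes (42.8%). Germ cell markers were also higher at P7 in WT, with 9 of 9 fold changes positive (median 2.07). Their sums were 1750 CPM at P7, against 290 and 384 CPM at P4. Endothelial markers had 0 of 4 positive (median -0.88), and macrophage markers 1 of 6. Stromal markers had 3 of 7 positive and Leydig cell markers 4 of 7. The part of these changes was not tested. Prpf3, which rose in cKO, had 77.6 CPM in P7 WT, against 84.0 and 67.0 CPM in P4 WT (0.04, adjusted p = 0.920).

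The genotype by stage interaction asks whether the difference between cKO and WT changed from P4 to P7. It was called for none of the 9 genes, against 0% of all genes, with edgeR. At an unadjusted p under 0.05, 3 of 9 and 4619 of 18419 genes would count. Prpf3 was lower in each cKO sample than in WT at P4 and higher at P7, a difference of 0.89 ± 0.30 on the log2 scale (adjusted p = 0.114). The difference was 0.81 ± 0.34 for Sart1 (adjusted p = 0.170) and 0.74 ± 0.29 for Eftud2 (adjusted p = 0.146), and it ran from -0.12 to 0.39 for the other 6. DESeq2 called 1665 genes and 0 of the 9, and limma-voom called 0 genes. The P7 comparison, the WT stage comparison and the interaction all share the 1 P7 WT sample.

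Other spliceosomal genes were taken as lists of related function. Their counts of calls stand against 7.26% of all genes called higher at P7 and 8.96% called in either direction at P4. More of all genes were called lower than higher at P7, with the numbers in the last section. Of 7 other tri-snRNP proteins (among them the helicase Ddx23 and the U5 protein Txnl4a), the log2 fold changes of cKO against WT ran from -0.22 to 0.76 at P7 (median 0.26) and from -0.01 to 0.65 at P4 (median 0.36), with none past the threshold in edgeR. The highest at P7 was Ddx23 (0.76, adjusted p = 0.0746), named after its value was seen. Of 14 genes for assembly of the tri-snRNP and U5 particle, 5 rose and 2 fell in cKO at P7 (median 0.27). Ruvbl2, an ATPase of the R2TP chaperone complex, rose by 1.26 ± 0.23 (edgeR adjusted p = 0.00895), and Tssc4, a U5 chaperone, by 1.42 ± 0.28 (adjusted p = 0.0103). With length and GC offsets they stood at 0.36 and 0.35. The splicing kinase genes Prpf4b (-1.05 ± 0.21, adjusted p = 0.0119, but -0.16 with length and GC offsets) and Srpk2 (-1.05 ± 0.22, adjusted p = 0.0130, but 0.02 with length and GC offsets) fell. At P4, 1 of these 14 rose, Ruvbl1 (0.93, adjusted p = 0.0413), and 1 fell, the deubiquitinase gene Usp15 (-1.01, adjusted p = 0.0225).

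The proteins that join or follow the tri-snRNP in the spliceosome were measured alongside. Of 8 B complex proteins, 1 fell at P7, Mfap1b (-1.11, edgeR adjusted p = 0.0212), whose reads are uncertain because of its near-identical copy Mfap1a. The list median was -0.09 at P7 and 0.22 at P4, where the values ran from -0.02 to 0.84 without a call. Of 13 genes of the Prp19 complex and related proteins, 3 rose at P7, Ppie (0.91), Ctnnbl1 (0.85) and Xab2 (0.97), and 2 at P4, Prpf19 (0.85) and Ppie (0.60). In the U6 LSm ring, 1 of 7 rose at each stage, Lsm4 (1.15 at P7, adjusted p = 0.0408, and 0.95 at P4, adjusted p = 0.0441). Of 5 U1 and U2 proteins, 2 rose at P7, Snrnp70 (1.24) and Snrpa (0.98), and 2 at P4, Snrpc (1.24) and Snrnp70 (0.74). All 14 calls of these lists at P7 were lost when only the P7 libraries were fitted and with length and GC offsets, 8 of 14 without P7 cKO library 2, and 1 to 3 of 14 without a P4 cKO library. Over all genes, the fit of the P7 libraries alone called none at P7, and the offsets left very few. All 7 calls at P4 were lost without any one of P4 WT library 1 and P4 cKO libraries 1, 2 and 3, and 6 of 7 without P4 WT library 2 or P7 cKO library 3. Without P4 WT library 1 or P4 cKO library 3, very few of all genes were called at P4 (last section). Length and GC offsets also ended 6 of the 7, library totals 6 and the length offset 4. At P7 the length offset ended 5 of the 14.

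Between stages these lists gave few calls, while 14.5% of all genes were called higher in cKO and 21.8% in either direction in WT. In cKO, Srpk2 (0.58), Crnkl1 (0.75), Cdc5l (0.48) and Lsm8 (0.58) rose and Snrpa1 (-0.41) fell at P7 against P4. In WT, Srpk2 (1.22), Prpf4b (0.96), Mfap1a (1.24), Mfap1b (1.07) and Lsm8 (0.99) rose, and Tssc4 (-1.13), Pih1d1 (-1.07), Ruvbl2 (-0.94) and Snrnp70 (-1.0) fell. The 9 WT calls were lost without P4 WT library 1 and also with length and GC offsets, and 4 of the 5 cKO calls without P4 cKO library 1 or 3, and 2 or 3 of the 5 without any one of the other P4 and P7 cKO libraries and the P4 WT libraries. Snrpa1 in cKO was also lost with length and GC offsets, with library totals, without a filter and with the cKO groups alone, and Cdc5l with limma-voom. The interaction was called for no gene of these lists.

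**Figure D4:**
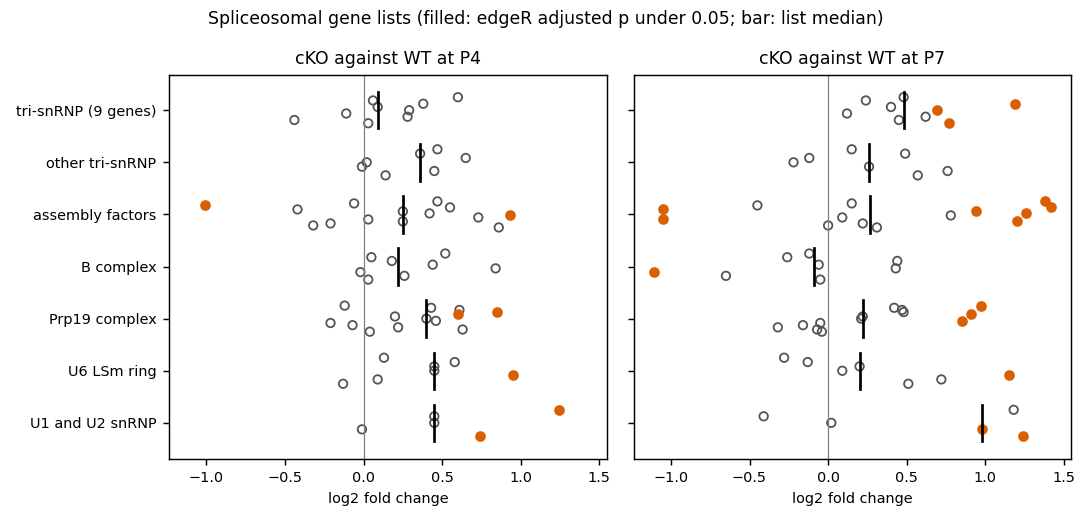
Log2 fold change of cKO against WT (horizontal axes) at P4 (left) and P7 (right) for the 9 tri-snRNP genes and 6 lists of other spliceosomal genes. Points are genes, filled for an edgeR adjusted p under 0.05, and upright bars are list medians, which for the 9 genes stand at 0.09 at P4 and 0.48 at P7.

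Genes with a profile like that of the 9 genes were ranked by the root mean square difference of log2 CPM, centred per gene over the 9 samples, among 11012 genes. Closest to the mean of the 9 genes were Endov (0.0471), Tdp1 (0.0522), Mad2l2 (0.0537), Thoc6 (0.0629) and Abcb6 (0.0641). Closest to Sart1 were Nle1 (0.0714), Mrpl54 (0.0744), Abhd16a (0.0786), Klhdc4 (0.0836) and Cox5b (0.0890). None of the 5 genes nearest to Sart1 was among the 5 nearest to the mean.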

How the data were processed

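The authors deposited raw read counts per gene with coordinates and exon lengths, per the file headers. Per the submitters' processing notes, the build was GRCm38 (mm10) and the tools included STAR 2.7.11a, featureCounts in Subread 2.0.6, Trim Galore 0.6.10 and SAMtools 1.6. Whether counting used strand or reads that match several genes is not given in the sources used here. Between 67.8% and 80.0% of counts under 50 were even, a pattern that counting both mates would give. Totals were 28.8 to 41.8 M reads. No gene of the mitochondrial chromosome was in the table.

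Chi-square per degree of freedom was 1.98 for the P7 WT pair and 23.49 to 122.88 for other pairs, so the P7 WT libraries were summed. Counts were fitted in edgeR 4.0.16 (R 4.3.3) over 9 samples: TMM factors, filterByExpr defaults (18419 genes), robust quasi-likelihood F test with 1 mean per group and 5 residual degrees of freedom, two-sided, Benjamini-Hochberg adjustment over all genes, with 0.05 as threshold. The fit had a common biological coefficient of variation (BCV) of 0.228, and each SE comes from the fold change and its F statistic. The script was tested on simulated data. Alternatives used DESeq2 1.42.0, limma-voom (limma 3.58.1), other scalings, filters and sample sets, and offsets for length and GC content (GC for 97.9% of genes, from GENCODE M21).

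The members and lists were chosen with earlier results of these data known. All members are named; of other lists, called genes are named, at most 4 per list and comparison, smallest p first. Lsm7 and Stra8 (3.18 to 5.85 CPM at P4, 55.7 to 86.9 CPM at P7) are named because the genotype label holds them. Profile neighbours had an average log2 CPM of 3 or more.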

Additional observations from a re-analysis of the deposited data

How the results depend on the processing

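The number of the 9 genes called was 3 for cKO against WT at P7. It was 7 with 10 libraries as separate samples, 7 with a replicate block over 10 libraries, 0 with the P7 libraries alone and 0 with length and GC offsets, and 0 to 4 leaving out 1 library (0 without P7 cKO 2, 1 without P7 cKO 3 or P4 cKO 2). At P4 it was 0, and 1 (Snrnp40) with DESeq2, the P4 libraries alone, 10 libraries and the replicate block, and 0 to 1 leaving out 1 library. Between stages in cKO it was 2, with 4 under library totals (also Eftud2 and Prpf4) and 1 to 2 leaving out 1 library. In WT it was 0, with 1 (Sart1) for 10 libraries and the replicate block. For the interaction it was 0, with 2 for 10 libraries and 3 with the replicate block. Over all genes, calls also rose with 10 libraries and the block at P4, at P7, in WT and for the interaction. At P7 they fell to none with the P7 libraries alone and to very few with both offsets (numbers below). Deviations of cKO and WT libraries with the same replicate number correlated at 0.15 and -0.09 at P4, and at 0 and -0.01 at P7. This cannot exclude pairing, because each stage had 2 WT libraries and those at P7 differed by about counting noise. Of 936 alternative values of the 9 genes, 854 kept sign and side of the threshold, 29 newly passed, 22 no longer passed and 31 changed sign. Causes were not tested.

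Signs changed as follows. With library totals, cKO against WT at P4 gave Prpf8 -0.07, Snrnp200 -0.10 and Eftud2 -0.13, P7 against P4 in WT gave Prpf6 -0.02, Prpf3 -0.05 and Prpf4 -0.06, and the interaction of Snrnp40 was 0.15. With a minimum count of 50, Eftud2 was -0.02 at P4, and between stages in WT Prpf3 was -0.02 and Prpf4 -0.04. Prpf4 in WT was 0 with 10 libraries and 0 with the block. The length offset gave Prpf3 -0.01 and Prpf4 -0.11 between stages in WT. Length and GC offsets gave Prpf3 -0.13 and Prpf4 -0.30 there, Eftud2 -0.04 and Prpf4 0.05 between genotypes at P4, and at P7 Snrnp40 -0.04 (0.48 without offsets), Znhit2 0 (1.38), Srpk2 0.02 (-1.05) and Lsm4 0 (1.15). Leaving out 1 library, the range was 0 to 0.13 for Prpf8 and -0.09 to 0.16 for Eftud2 (cKO against WT at P4), -0.53 to 0.10 for Lsm7 (cKO against WT at P7), -0.08 to 0.20 for Snrnp200 (stages in cKO), 0 to 0.12 for Prpf6, -0.11 to 0.20 for Prpf3 and -0.07 to 0.11 for Prpf4 (stages in WT), and -0.33 to 0.08 for Snrnp40 (interaction). The summed level at P4 was -0.13 in TPM.

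Library totals moved the median of all genes to -0.16 (cKO against WT at P4), 0.19 (at P7), 0.18 (stages in cKO), -0.11 (stages in WT) and 0.33 (interaction). Genes called higher and lower were then 528 and 1544 at P4 (891 and 760 with TMM), 1744 and 1402 at P7 (1338 and 1791 with TMM) and 3907 and 1818 between stages in cKO (2663 and 2709 with TMM). The genes called at P4 numbered 1651, with 3008 in DESeq2, 3229 for P4 alone, 2895 with 10 libraries, 2732 with the block, 634 with both offsets, and 2 to 4157 leaving out 1 library (2 without P4 WT 1, 11 without P4 cKO 3). At P7 there were 3129, with 0 for P7 alone, 6905 and 7438 with 10 libraries without and with the block, 2 with both offsets, and 961 to 4921 leaving out 1. Between stages in WT there were 4016, with 7279 and 7812 for 10 libraries, and 1187 to 6315 leaving out 1. In cKO there were 5372, and 3520 to 5569 leaving out 1. For the interaction there were 0, with 431 without a filter, 1665 in DESeq2, 3105 and 4311 for 10 libraries, and 0 to 1455 leaving out 1. The single P7 WT sample and the 5 residual degrees of freedom limit what the P7 comparisons can show.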
